A study of Mus musculus with 6 samples.

Results

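The 48 genes described here encode the receptors by which cells hold on to each other and to their matrix: integrin subunits, the cadherins, the adhesion molecules of the immunoglobulin (Ig) family, the hyaluronan receptor Cd44 and 3 syndecans. They were measured in mouse embryonic fibroblasts on 6 one-colour Agilent arrays, 3 labelled wild type and 3 labelled Rap1 knock-out. Rap1, encoded by Terf2ip, is a protein of the telomere-binding shelterin complex that is also found elsewhere on chromosomes. Both groups had been infected with the SV40 large T antigen, which inactivates p53 and the retinoblastoma protein, and with Cre recombinase, and both were grown in puromycin; the knockout allele carries a floxed last exon of Terf2ip that Cre removes. The labels do not give the number of embryos or cell lines behind the arrays, nor the age of the embryos, so every p-value measures only the spread between these 6 samples. Of the 48 genes, 45 had at least 1 probe matched by RefSeq accession, out of 16535 genes matched in all, and Cdh10, Itga10 and Itgb8 had none matched. Each gene was read by its brightest probe. Every level below is a log2 signal relative to the 75th percentile of its own array, and every difference is knockout minus wild type on that log2 scale.

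Integrins are pairs of an alpha and a beta subunit that bind matrix proteins outside the cell and, through talin and kindlin, the actin skeleton inside. Classical cadherins bind their own kind on the neighbouring cell and reach actin through the catenins. Ig adhesion molecules bind each other, integrins or other surface proteins, and fibroblasts are known for a mesenchymal set of these receptors in which Cdh2 and Cdh11 stand in place of the epithelial Cdh1.

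No adhesion gene passed the test. Of the 34 that entered the comparison, 0 reached a limma adjusted p under 0.05, where 2 of 19638 features did (0.0102%), and 17 of the 34 had a difference above 0 and 17 below. Among the genes whose groups did not overlap, the largest differences were a higher Mcam and lower Alcam and Itga8 in the knockout arrays. An unadjusted limma p under 0.05 was reached by 6 genes (17.6%, against 10.3% of all features), of which 3 were higher (Mcam, Itgb7 and Itgb3; 5.7% of all features were) and 3 lower (Alcam, Itga8 and Nrcam; 4.59%). The knockout and wild-type arrays did not overlap for 8 genes (23.5%, against 17.5% of all features), 5 of them higher (11.7% of all features) and 3 lower (5.77%). Of these, 3 differed at least 2-fold (8.82%, against 4.28%). The median difference of the 34 was −0.04, beside 0.06 over all features, while their median absolute difference was 0.54, beside 0.35. The 34 genes also varied more from array to array, with a median SD over the 6 arrays of 0.82 against 0.42 for all features.

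Terf2ip, the deleted gene, read −1.84, −1.71 and −1.87 in wild type and stayed at background in all 3 knockout samples, at least 38.4-fold lower (limma adjusted p = 0.00853). Between 61.6% and 67% of 41174 probes per array were well above background, and the number of arrays limits the precision. Of 13 fibroblast markers, 12 were above background on all 6 arrays and Lum on 5, all but knockout array 1. Wild-type arrays 2 and 3 were far more alike than any other pair: the SD of their log2 difference over 23631 probes was 0.195, against 0.69 to 1.06 for the other pairs. For probes spotted more than once, these arrays differed by an SD of 0.147, where 2 spots on the same array differed by 0.0736 to 0.107. The labels do not say whether they share an RNA extract. With both averaged into 1 sample limma called 0 features of 19638 (694 at an unadjusted p under 0.05, 3.53%), and 4 adhesion genes had an unadjusted p under 0.05: Mcam, Alcam, Itga8 and Itgb7. The arrays lay on 2 slides, with wild-type array 1 and knockout array 1 on slide 1 and the other 4 on slide 2.

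**Figure D1:**
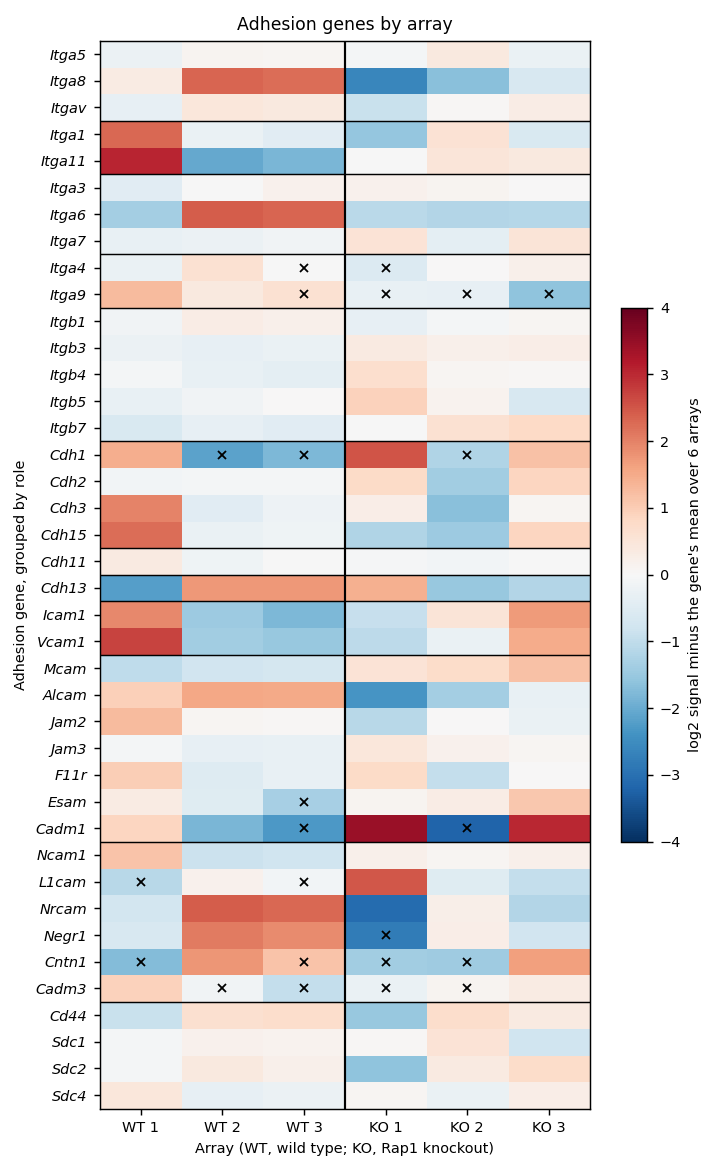
Log2 signal of the adhesion genes above background on at least 1 array, as the deviation from each gene's mean over the 6 arrays (colour; crosses mark readings not well above background), with genes in rows grouped by role and arrays in columns. Mcam is redder in all 3 knockout columns and Alcam and Itga8 are bluer there, while Itga11, Cdh13, Icam1 and Vcam1 set wild-type array 1 apart from wild-type arrays 2 and 3.

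Rap1 is brought to the telomere repeat TTAGGG through its shelterin partner TRF2, so this word was looked up on both strands in the promoters of the adhesion genes, 250 bases before to 50 bases after the start (RefSeq, GRCm38.p6). A promoter was listed for 30 of the 48 genes, and 5 of these held the word (16.7%), against 3252 of 27025 genes in all (12%). None of the 30 held 2 copies in a row. The 4 windows below, in which the word or its reverse complement CCCTAA stands in capitals, come from Itgb5 (chr16:33829489-33829518), Cd44 (chr2:102901886-102901915), Cdh6 (chr15:13173856-13173885) and Cntn1 (chr15:92161142-92161171), each read along the strand of its gene. They are shown because Itgb5 and Cd44 were tested on the arrays and Cdh6 and Cntn1 are 2 of the genes at or near background.
Itgb5: cggggagggagaCCCTAActagaagtttcg
Cd44: tcttcagttcctCCCTAAgataagtccagc
Cdh6: ttaagccgtcccCCCTAAaaaatatataag
Cntn1: tctgcgattgtcTTAGGGatgaggtgatca
The other gene with the word was Itgb8, which had no matched probe on the array. The promoters of Mcam, Alcam, Itga8, Itgb7 and Nrcam were among those searched and the word is not in these windows. For Itgb5 and Cd44, which carry it, the differences were 0.28 (SE 0.40) and −0.31 (SE 0.70), and neither passed the test.

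Mcam, Alcam and Itga8 gave the largest differences among the 8 genes whose groups did not overlap. Mcam (CD146), an Ig adhesion molecule of vessel walls and of melanoma cells, read 0.26, 0.50 and 0.57 on wild-type arrays 1, 2 and 3 and 1.82, 2.00 and 2.43 on knockout arrays 1, 2 and 3. Every knockout array lay above every wild-type array, by more than the range inside either group. The difference was 1.64 (3.12-fold, SE 0.25, unadjusted p = 0.000381, limma adjusted p = 0.174), with 1.56 on slide 1 and 1.68 on slide 2. A second Mcam probe, dimmer throughout, read −3.06, −2.96 and −2.75 in wild type and −1.54, −1.32 and −0.99 in knockout, again a difference of 1.64. With wild-type arrays 2 and 3 averaged the difference was 1.69 (unadjusted p = 0.00233, limma adjusted p = 0.704). Mcam also marks pericytes and endothelium. The pericyte markers had a summed linear signal of 2.95 to 3.24 in wild type and 2.77 to 4.54 in knockout (3 of 6 above background on all arrays, Abcc9 on none), and the endothelial markers 2.52 to 6.05 and 3.38 to 4.91, with Pecam1, Tie1 and Emcn not above background on any array. Neither range separates the groups. Most of the endothelial sum came from Egfl7, which read 1.18, 2.58 and 2.54 in wild type and 2.17, 2.28 and 1.71 in knockout. The genes of smallest p in these lists, Anpep and Vwf, differed by 0.92 and −0.29 and did not pass.

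Alcam (CD166), which binds itself and CD6 and is found on mesenchymal and activated cells, read −0.33, 0.28 and 0.26 in wild type and −3.64, −2.62 and −1.57 in knockout. All 3 knockout arrays lay below all wild-type arrays, and the knockout arrays were spread over a wider range than the wild-type arrays. The difference was −2.68 (6.41-fold lower, SE 0.53, unadjusted p = 0.00162, limma adjusted p = 0.285), with −3.31 on slide 1 and −2.36 on slide 2. Averaging wild-type arrays 2 and 3 gave −2.58 (unadjusted p = 0.00607, limma adjusted p = 0.934). Alcam had 1 probe, so it has no second reading.

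Itga8, the alpha subunit that pairs with Itgb1 and binds nephronectin, read −2.54, −0.56 and −0.64 in wild type and −5.5, −4.55 and −3.51 in knockout. The groups did not overlap, but wild-type array 1 lay closer to knockout array 3 than to the other wild-type arrays. The difference was −3.27 (9.65-fold lower, SE 0.70, unadjusted p = 0.00255, limma adjusted p = 0.317), with −2.96 on slide 1 and −3.43 on slide 2. Its second probe above background gave −3.12, and with wild-type arrays 2 and 3 averaged the difference was −2.95 (unadjusted p = 0.00864, limma adjusted p = 0.934). Npnt, which encodes nephronectin, differed by −0.42 (SE 0.40). None of the 13 fibroblast markers passed the test. Their summed linear signal was 590 to 645 in wild type and 315 to 545 in knockout. A difference below 0 was seen for 9, as for Alcam and Itga8, and above 0 for 4. The groups did not overlap for 4 of the 13, each lower in knockout (5.77% of all features): Thy1 (−2.65), Pdgfra (−2.38), Prrx1 and Fn1 (−0.32). Thy1 and Pdgfra were lowest on knockout array 1 (−2.29 and −1.55), as Alcam and Itga8 were, and Prrx1 and Fn1 were not. Dcn, with the largest difference of the 13 (−3.59, SE 2.5), read −5.54 on that array and 2.13 to 5.70 on the others, and its groups overlapped. Lum was not above background on knockout array 1, while Pdgfrb had its highest reading there, 4.49. Of all 13, Prrx1, a mesenchymal transcription factor, had the smallest p (−0.91, SE 0.25, limma adjusted p = 0.431). The part of these lower sums in the adhesion genes was not tested. In such bulk RNA, fewer cells of a type and less RNA per cell cannot be told apart.

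**Figure D2:**
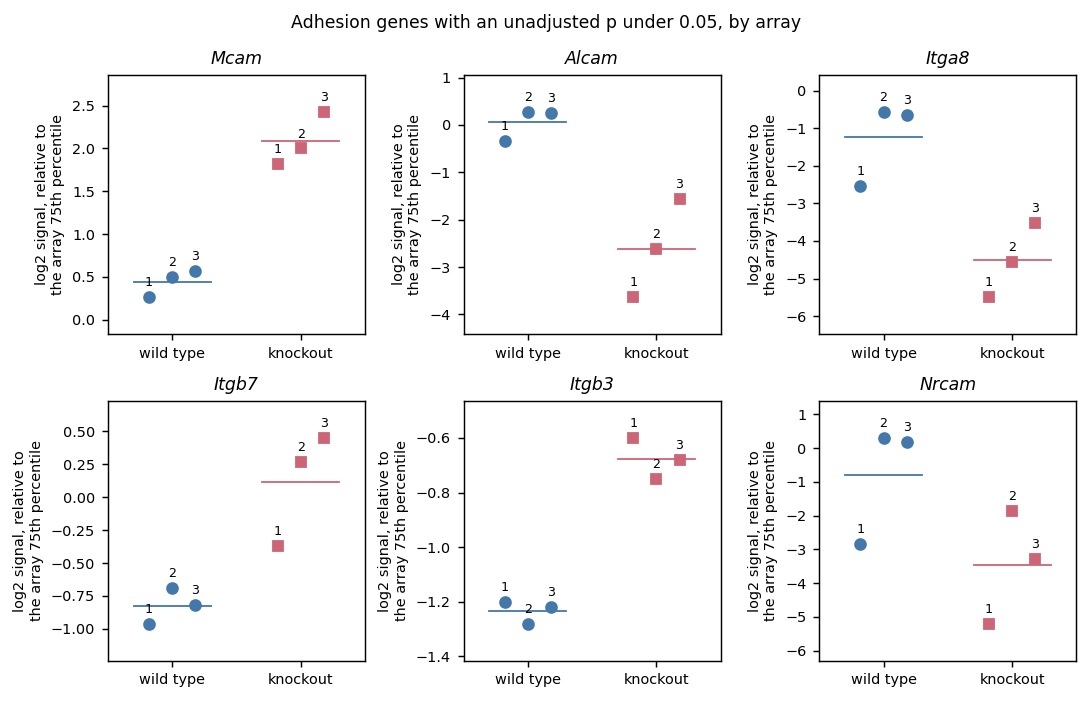
Log2 level (scaled to each array's 75th percentile) of the 6 adhesion genes with an unadjusted limma p under 0.05, by array (circles, wild type; squares, knockout; numbers, array number; line, group mean; each panel has its own axis). The groups are apart for Mcam, Alcam, Itga8, Itgb7 and Itgb3, and for Nrcam wild-type array 1 at −2.84 lies among the knockout arrays.

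Among the RGD-binding alpha subunits, which recognise the Arg-Gly-Asp motif of fibronectin and vitronectin, Itga8 stood alone. Itga5, the fibronectin receptor subunit, read 0.42, 0.79 and 0.76 in wild type and 0.59, 1.05 and 0.41 in knockout, a difference of 0.03 (95% interval −0.60 to 0.65). Itgav, the subunit shared by the vitronectin receptors, differed by −0.35 (95% interval −1.29 to 0.59). The interval of Itga5 stays inside a 2-fold change in either direction, and that of Itgav reaches past 2-fold lower. Their ligand Fn1, fibronectin, read 5.25, 4.92 and 4.90 in wild type and 4.83, 4.61 and 4.70 in knockout; the groups did not overlap and the difference was −0.32 (SE 0.22). Vtn, vitronectin, was not above background on any array.

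The collagen-binding alpha subunits differed between arrays more than between groups. Itga11, a receptor for fibrillar collagen on fibroblasts, read 3.57, −1.52 and −1.30 in wild type and 0.53, 1.01 and 0.93 in knockout. Wild-type array 1 was the highest of the 6 and wild-type arrays 2 and 3 were the lowest, with the knockout arrays close together between them. The difference of 0.57 (SE 1.30) became −0.26 with wild-type arrays 2 and 3 averaged and 2.38 on slide 2 alone (limma adjusted p = 0.0383), where the only wild type is that near-alike pair, and it was −3.04 on slide 1. Itga1, which prefers basement membrane collagen, read −2.65, −5.23 and −5.40 in wild type and −6.51, −4.39 and −5.58 in knockout, so array 1 was the highest wild-type and the lowest knockout reading (difference −1.07, SE 0.86). Itga2 was not above background on any array.

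The laminin-binding alpha subunits were likewise not separated. Itga6, which pairs with Itgb1 or Itgb4, read −2.24, 1.52 and 1.43 in wild type and −1.97, −2.06 and −2.05 in knockout. Wild-type array 1 sat with the knockout arrays, and wild-type arrays 2 and 3 lay far above all of them. The difference was −2.26 (SE 0.98, limma adjusted p = 0.490), and without wild-type array 1 it was −3.50 and passed (limma adjusted p = 0.0199), with the near-alike pair as the only wild type. Itga3 differed by 0.20 (SE 0.24) and Itga7, the main laminin receptor subunit of muscle, by 0.45 (SE 0.31). Of the alpha subunits that bind Vcam1 and related ligands, neither entered the comparison. Itga4 was above background on 4 of 6 arrays. Itga9 was above background on 2 wild-type arrays and on no knockout array; it read −5.97 and −6.85 on wild-type arrays 1 and 2, and no fold is given.

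The beta subunits gave mostly small positive differences. Of 5 tested, 4 had a difference above 0, and for 3 of them the groups did not overlap, each higher in knockout (11.7% of all features were); none passed the test. Itgb7, known from lymphocytes, where it pairs with Itga4 or Itgae, read −0.96, −0.69 and −0.82 in wild type and −0.37, 0.27 and 0.45 in knockout. Even the lowest knockout reading exceeded the highest wild-type reading (difference 0.94, SE 0.28, unadjusted p = 0.0131, limma adjusted p = 0.466). Leukocyte markers had a summed linear signal of 1.2 to 1.67 in wild type and 0.795 to 1.38 in knockout. Ptprc, Adgre1, Itgam and Laptm5 were not above background on any array. Cd14, which carried most of that sum, had the smallest p (−0.73, limma adjusted p = 0.509). Itgb3, the partner of Itgav in the vitronectin receptor, read −1.20, −1.28 and −1.22 in wild type and −0.60, −0.75 and −0.68 in knockout. Both groups were tight and apart (difference 0.55, SE 0.20, unadjusted p = 0.0280, limma adjusted p = 0.477), and with wild-type arrays 2 and 3 averaged the unadjusted p was 0.110. Itgb4, the hemidesmosome subunit that pairs with Itga6, read −0.91, −1.13 and −1.20 in wild type and −0.14, −0.75 and −0.78 in knockout (difference 0.52, SE 0.26), with a second probe at 0.44. Itgb1, the partner of most alpha subunits here, read 2.66, 3.09 and 2.99 in wild type and 2.47, 2.71 and 2.87 in knockout (difference −0.23, 95% interval −0.79 to 0.33). The Itgb5 difference was 0.28 (SE 0.40), positive on slide 1 (1.21) and negative on slide 2 (−0.18), and Itgb6, an epithelial subunit, was not above background on any array.

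The values of alpha and beta subunits that form a receptor were as follows. For the nephronectin receptor Itga8 stood at −3.27 and its partner Itgb1 at −0.23, for the fibronectin receptor Itga5 stood at 0.03 beside the same Itgb1, and for the vitronectin receptor Itgav stood at −0.35 and Itgb3 at 0.55. For the hemidesmosome pair Itga6 stood at −2.26 and Itgb4 at 0.52. None of these differences passed the test over all features, and differences between subunits of a pair were not tested.

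**Figure D3:**
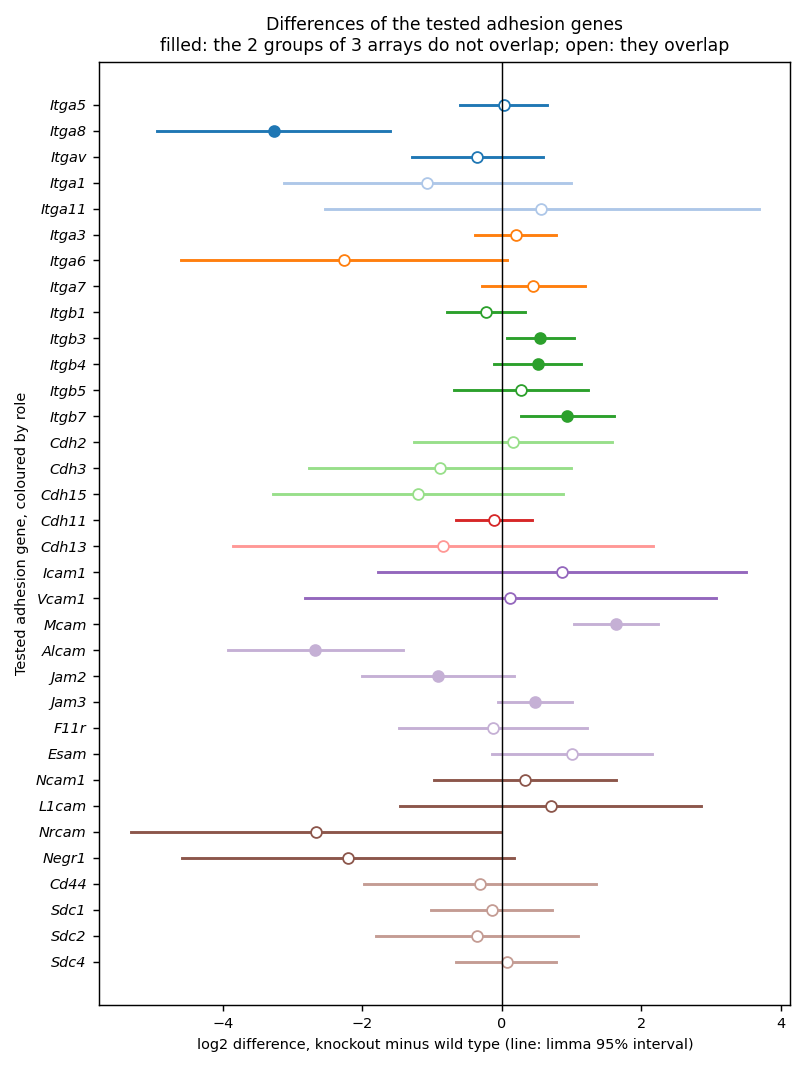
Difference of each of the 34 tested adhesion genes, knockout minus wild type on the log2 scale, with limma's 95% interval, coloured by role. Filled points are the 8 genes whose groups of 3 arrays do not overlap; Mcam at 1.64 lies farthest to the right and Itga8 at −3.27 farthest to the left.

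Among cadherins, none separated the groups. Cdh2, the N-cadherin of mesenchymal cells, read −0.74, −0.70 and −0.70 in wild type and 0.13, −2.01 and 0.22 in knockout, so 2 knockout arrays lay above and 1 below the tight wild-type group (difference 0.16, SE 0.60). Cdh3, P-cadherin, read −0.21, −2.63 and −2.38 in wild type and −1.90, −3.86 and −2.10 in knockout (difference −0.88, SE 0.79). Cdh15, the cadherin of muscle precursors, read −2.99, −5.49 and −5.38 in wild type and −6.42, −6.68 and −4.35 in knockout, with the highest reading again on wild-type array 1 (difference −1.20, SE 0.87, limma adjusted p = 0.575). Skeletal muscle markers had a summed linear signal of 1.64 to 7.26 in wild type and 0.988 to 2.13 in knockout, their highest on wild-type array 1 where Actc1, cardiac actin, read 2.75 and at most 1.07 elsewhere. Myod1, Myf5, Myog and Pax7 were not above background on any array, Chrna1 had the smallest p (−1.95, limma adjusted p = 0.503), and the part of these genes in the Cdh15 readings was not tested. Cdh1, the epithelial E-cadherin, was above background on wild-type array 1 and knockout arrays 1 and 3, where it read −5.19, −4.15 and −5.5, and not on the other 3 arrays. Cdh4, Cdh5 and Cdh6 were not above background on any array, Cdh5 being the cadherin of endothelium.

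Cdh11, the type II cadherin of mesenchymal cells, gave different answers by probe. Its brightest probe by the mean, A_52_P683146, read 1.32, 0.80 and 0.93 in wild type and 0.90, 0.86 and 0.95 in knockout, nearly flat over the 6 arrays (difference −0.11, SE 0.23). Probe A_51_P506204 read 2.66, −1.63 and −1.77 in wild type and −1.85, 1.53 and 2.32 in knockout, and probe A_52_P437795 read 2.09, −2.04 and −2.10 in wild type and −2.37, 1.24 and 1.88 in knockout. These 2 probes put the 6 arrays into the same high and low sets, wild-type array 1 with knockout arrays 2 and 3 against wild-type arrays 2 and 3 with knockout array 1. The groups overlapped for all 3 probes, and the differences of the other 2 were 0.91 and 0.93. All 3 probes are assigned to the same RefSeq transcript, and where they lie within it was not determined here.

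Cdh13, the cadherin without a cytoplasmic tail that is held by a GPI anchor, showed the mirror image. It read −1.09, 2.86 and 2.87 in wild type and 2.54, −0.39 and −0.03 in knockout, high on the 3 arrays on which those 2 Cdh11 probes were low. The groups overlapped (difference −0.84, SE 1.26), and the difference was 3.64 on slide 1 and −3.08 on slide 2, where it passed with the near-alike pair as the only wild type (limma adjusted p = 0.0317). The further Cdh11 probes, and Itga11 and Vcam1, are given by array because of their spread and were chosen after their values were seen.

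**Figure D4:**
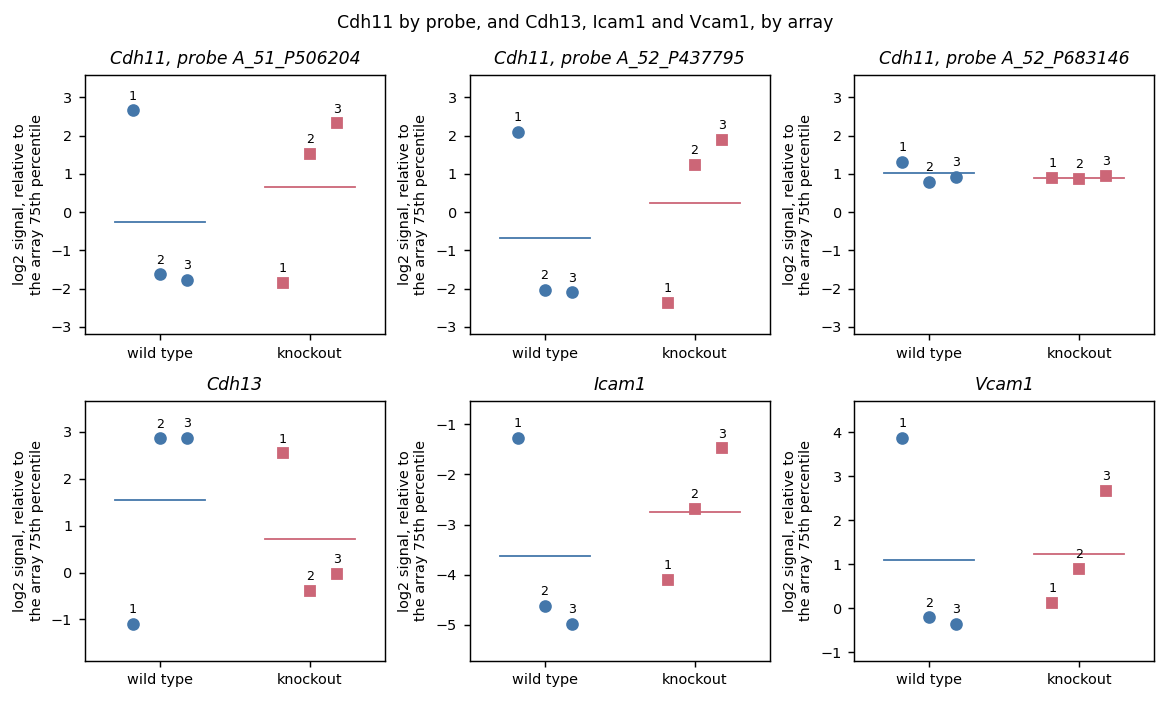
Log2 level (scaled to each array's 75th percentile) of the 3 probes of Cdh11 on a shared axis (top) and of Cdh13, Icam1 and Vcam1, each on its own axis (bottom), by array (circles, wild type; squares, knockout; numbers, array number; line, group mean). Probe A_52_P683146 is nearly flat, while the other Cdh11 probes are high on wild-type array 1 and knockout arrays 2 and 3, where Cdh13 is low.

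Icam1 and Vcam1, the cytokine-induced counter-receptors for leukocyte integrins, varied together over the arrays without separating the groups. Icam1 read −1.27, −4.63 and −4.98 in wild type and −4.11, −2.68 and −1.48 in knockout. Vcam1 read 3.87, −0.21 and −0.35 in wild type and 0.13, 0.90 and 2.66 in knockout. For both, wild-type array 1 was the highest, then knockout arrays 3, 2 and 1, then wild-type arrays 2 and 3. The difference was 0.87 (SE 1.11) for Icam1 and 0.12 (SE 1.23) for Vcam1, which became 0.28 and −0.57 with wild-type arrays 2 and 3 averaged. On slide 1 they were −2.84 and −3.75 and on slide 2 they were 2.73 and 2.06, opposite in sign for each gene. A second Vcam1 probe gave 0.16 over all arrays.

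The remaining Ig molecules of junctions and vessels included a pair that lay on opposite sides. Jam3, a junctional adhesion molecule, read 2.72, 2.45 and 2.49 in wild type and 3.25, 2.97 and 2.88 in knockout, without overlap (difference 0.48, SE 0.22, limma adjusted p = 0.497). Its relative and binding partner Jam2 read −0.18, −1.39 and −1.42 in wild type and −2.57, −1.45 and −1.71 in knockout, without overlap but with the nearest arrays at −1.42 and −1.45 (difference −0.91, SE 0.45, limma adjusted p = 0.499). The Jam2 difference was −2.39 on slide 1 and −0.18 on slide 2. F11r (JAM-A) differed by −0.13 (SE 0.57), and Esam, an endothelial molecule that entered the comparison through the knockout group, by 1.01 (SE 0.48), with wild-type array 3 not above background. Cadm1, a nectin-like molecule, was above background on 2 wild-type and 2 knockout arrays and was not tested. It read −4.24, −6.93 and −7.39 in wild type and −1.63, −8.29 and −2.08 in knockout, so its highest readings, knockout arrays 1 and 3 and wild-type array 1, were on the 3 arrays on which Cdh1 was above background. Epithelial markers had a summed linear signal of 3.61 to 5.74 in wild type and 4.76 to 12.9 in knockout; Cldn4, Esrp1 and Ovol1 were not above background on any array, and Epcam read −6.37 on wild-type array 1, the lowest of the 6. Most of the epithelial sum came from Krt18 and Krt19. Krt18, a simple epithelial keratin, had the smallest p of that list (1.53, SE 0.48, limma adjusted p = 0.470). It read 1.49, 0.73 and 0.97 in wild type and 2.34, 3.59 and 1.84 in knockout. Of the 7 epithelial markers tested it was the 1 without overlap, higher in knockout (11.7% of all features were).

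Among the neural Ig molecules, Nrcam had a large negative difference with groups that overlapped. Nrcam, which guides axons and clusters channels at nodes, read −2.84, 0.30 and 0.19 in wild type and −5.20, −1.87 and −3.29 in knockout. Wild-type array 1 lay below knockout array 2, and the difference was −2.67 (SE 1.11, unadjusted p = 0.0487, limma adjusted p = 0.484), with −2.36 on slide 1 and −2.82 on slide 2. Negr1, a GPI-anchored neuronal molecule, read −4.92, −2.19 and −2.38 in wild type and −7.08, −4.01 and −5.03 in knockout (difference −2.21, SE 0.99), with the same order of arrays as Nrcam inside the knockout group. The reading on knockout array 1 was not above background and Negr1 entered through the wild-type group, so the size of its difference is uncertain. With wild-type arrays 2 and 3 averaged the unadjusted p was 0.126 for Nrcam and 0.158 for Negr1. Neural and glial markers had a summed linear signal of 1.48 to 1.65 in wild type and 0.744 to 0.902 in knockout. These ranges did not overlap. Tubb3 and, on wild-type arrays 2 and 3, Elavl4 carried most of that sum, and for both of these genes the groups overlapped. Tubb3 read 0.26, −0.35 and −0.33 in wild type and −0.58, −0.33 and −0.83 in knockout. Elavl4 read −6.87, −0.86 and −0.84 in wild type and −4.42, −6.18 and −4.71 in knockout. S100b, a glial calcium binder, had the smallest p (−1.32, SE 0.31, limma adjusted p = 0.351). It read −2.13, −2.32 and −2.15 in wild type and −2.98, −4.03 and −3.56 in knockout, lower without overlap (5.77% of all features were). All 4 neural and glial markers tested had a difference below 0 (median −1.24, beside 0.06 over all features). Gfap, Snap25 and Nefl were not above background on any array, and the part of neural and glial markers in Nrcam and Negr1 was not tested. Ncam1 differed by 0.34 (SE 0.55). L1cam entered through the knockout group, was above background on wild-type array 2 alone in wild type, and its difference rests in part on background readings. Cntn1 and Cadm3 were above background on 2 arrays each and were not tested.

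Cd44, the receptor for hyaluronan, and the syndecans, heparan sulfate proteoglycans that assist integrins, stayed within the array spread. Cd44 read 3.31, 4.84 and 4.92 in wild type and 2.69, 4.89 and 4.56 in knockout, low on array 1 of both groups (difference −0.31, SE 0.70). Sdc2 read 3.47, 3.92 and 3.75 in wild type and 1.91, 3.88 and 4.27 in knockout (difference −0.36, SE 0.61), and Sdc1 differed by −0.14 (SE 0.36). Sdc4, the syndecan of focal adhesions, differed by 0.07 (SE 0.30) on its brightest probe and by 1.84 on its second, which read 0.81, −0.22 and −0.19 in wild type and 2.56, 2.64 and 0.73 in knockout. Of 11 genes with at least 2 probes above background on all arrays, the probes shared a sign for 8 and differed in sign for 3 (Cdh11, Itga3 and Ncam1), and for 7 their differences lay within 0.5 of each other.

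**Figure D5:**
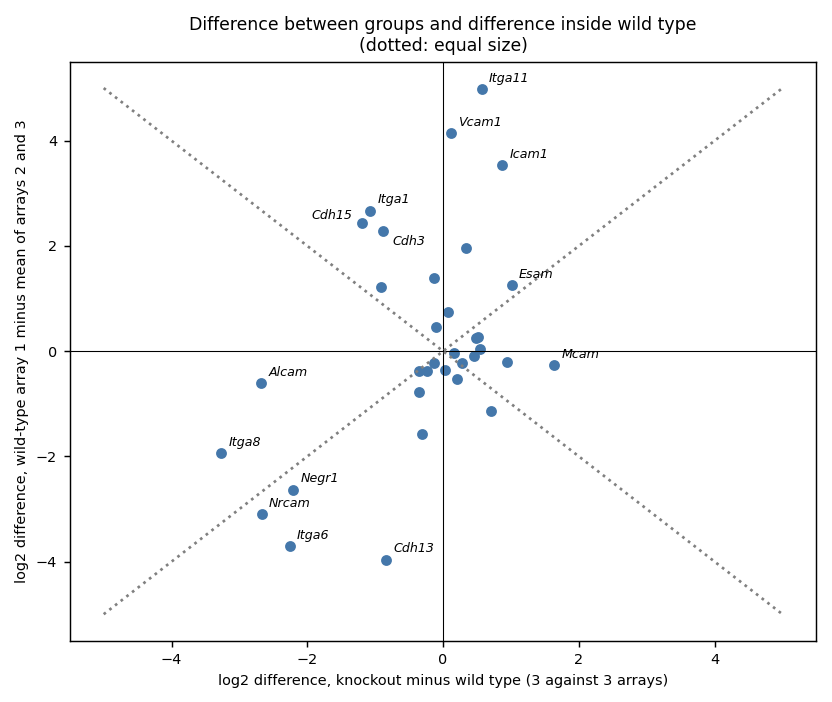
Each of the 34 tested adhesion genes by its difference between groups (x, knockout minus wild type, log2) and its difference inside wild type (y, array 1 minus the mean of arrays 2 and 3, log2); dotted lines mark equal size. Mcam, Alcam and Itga8 lie where the group difference is the larger, and Itga11 at 4.98 and Vcam1 at 4.15 where the gap inside wild type is.

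For 24 of the 34 genes (70.6%, against 55.9% of all features) the gap between wild-type array 1 and the mean of wild-type arrays 2 and 3 was larger than the difference between the groups. That gap was at least 4-fold for 10 genes (29.4%, against 5.09%). It was 4.98 for Itga11, 4.15 for Vcam1, 3.54 for Icam1, −3.71 for Itga6 and −3.96 for Cdh13. The sign of the difference was the same on both slides for 17 of 34 genes (50%, against 60.1%). Without wild-type array 1 the groups did not overlap for 19 genes (45.7% of all features), without knockout array 2 for 13 (29.2%) and on slide 2 alone for 20 (57.9%), in place of 8. Without wild-type array 1, Itga6 was the 1 adhesion gene past the threshold (0.326% of all features), and on slide 2 alone 3 genes were, Itga11, Itga6 and Cdh13 (1.56%).

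Among the listed partners of these receptors inside the cell and the listed matrix ligands, no tested gene passed the limma test either. Tested were 20 of 25 focal adhesion and integrin tail proteins, 13 of 14 catenins and junction adaptors, and 22 of 29 matrix ligands. Of 20 focal adhesion and integrin tail proteins tested, 10 had a difference above 0 and 10 below, with a median of −0.01, and the groups overlapped for all 20. Tln1, talin, differed by 0.37 (SE 0.32), Ilk by −0.19 (SE 0.23) and Ptk2, focal adhesion kinase, by 0.36 (SE 0.26), and the smallest p belonged to Bcar1, a docking protein for Src kinases (0.66, SE 0.30, limma adjusted p = 0.497). Of 13 catenins and junction adaptors, 4 lay above 0 and 9 below with a median of −0.11; Ctnnb1, beta-catenin, differed by 0.02 (SE 0.21) and Ctnna1 by −0.09 (SE 0.28). Ctnna2, the neural alpha-catenin, had the smallest p (limma adjusted p = 0.140), and it entered the comparison through the wild-type group alone. It read −6.73, −4.94 and −5.49 in wild type and stayed at background in all 3 knockout samples, at least 2.56-fold lower. Its p therefore compares signal with background readings. Of 22 matrix ligands tested, 17 lay below 0 and 5 above (median −0.57). For 5 of them the groups did not overlap, each with the lower levels in knockout (5.77% of all features): Fn1, Tnc, Col4a1, Lamb1 and Nid1. Nid1, a basement membrane linker, had the smallest p (−0.79, SE 0.25, limma adjusted p = 0.470).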

How the data were processed

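RNA of 3 wild-type and 3 Rap1 knockout samples was hybridised to Agilent arrays. Scanner files deposited for each array give intensity as the background-corrected processed signal of Feature Extraction (version 10.5.1.1 per the file headers), with flags for dim, saturated and outlying spots. A value table, also deposited, gives log2 values whose processing steps are not given in the sources used here (limma is the only tool listed by the submitters' processing notes). Its knockout columns 1, 2 and 3 matched scanner files 2, 3 and 1, within the group.

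Of 45018 spots, 1639 control spots and outlier spots (74 to 120 per array) were left out, and 0 were saturated. Spots of a probe were averaged (41174 probes), and each array was scaled by subtracting the 75th percentile of its log2 signals. Probes had to be well above background on every array of 1 group or both (25513), and the brightest stood for its gene (19638 features). Names came from RefSeq accessions (GRCm38.p6; 23374 probes matched, 17800 kept the file's name). The groups were compared with limma 3.58.1 under R 4.3.3 (a linear model with moderated variance and without a block, 2-sided, p adjusted by Benjamini-Hochberg, threshold 0.05), after a trial of the code on simulated data. Where a probe was at background in a whole group, its fold is a bound set by the lowest signal above background per array. Summed linear signals add 2 to the power of the level over a marker list, so the brightest genes set most of each sum.

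Members, lists and alternatives were chosen with earlier results of these data known. The rule for per-array values took genes without overlap and at least 2-fold apart, those with an unadjusted p under 0.05, and the smallest p of each role; in the other lists it took the gene of smallest p. Any other gene was named for its role or after its values were seen.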

Additional observations from a re-analysis of the deposited data

How the results depend on the processing

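Alternatives covered the background correction and scaling (normexp, quantile, array medians, value table), the filter on dim probes, averaging of probes, a trended robust variance, the replicate number or slide as a block, slide 2 alone, wild-type arrays 2 and 3 averaged, and each array left out. Under these 18, 18 of 34 adhesion genes kept their direction and 16 turned at least once. By limma, features past the threshold (2) numbered 0 over probes above background on all arrays (1780 at an unadjusted p under 0.05), 4 with the mean of probes, 0 with the replicate block (2333), 0 with the slide block (3478), 0 with wild-type arrays 2 and 3 averaged (694), 307 on slide 2 alone, and 0 to 64 with 1 array left out. Adhesion genes past it numbered 3 on slide 2 alone and 0 to 1 with 1 array left out, in each case with the near-alike wild-type arrays as the only wild type, and 0 under the other alternatives, the replicate block included. Adhesion genes without overlap numbered 20 of 34 on slide 2 (57.9% of all features) and 8 to 19 with 1 array left out (19.1% to 45.7%). Without knockout array 3 they numbered 10 of 34, where 42.1% of all features did not overlap. The median difference of the adhesion genes was −0.10 with normexp and in the value table, −0.09 with quantile normalisation, 0.05 with median scaling, 0.04 without a filter, −0.11 above background on all arrays, −0.14 with wild-type arrays 2 and 3 averaged, and −0.15 to 0.05 with 1 array left out. Median scaling moved the median of all features from 0.06 to 0.16 and no filter to −0.09.

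On slide 2 alone the differences turned in sign for Itga5 (−0.05), Itga1 (0.33), Itga3 (−0.02), Itgb5 (−0.18), Cdh2 (−0.19), Cdh11 (0.04), L1cam (−0.74) and Sdc2 (0.24). With normexp, quantile normalisation and the value table they turned for Itga5 (−0.02, 0.00 and −0.03) and Sdc4 (−0.05, −0.04 and −0.07). With wild-type arrays 2 and 3 averaged they turned for Itga11 (−0.26), Vcam1 (−0.57) and Sdc4 (−0.06), and with the mean of probes for Cdh11 (0.58) and Ncam1 (−0.04). With 1 array left out, the genes that turned ranged from −0.16 to 0.17 (Itga5), −0.60 to 0.01 (Itgav), −0.31 to 2.23 (Itga11), −0.11 to 0.66 (Itgb5), −0.23 to 0.89 (Cdh2), −0.22 to 0.04 (Cdh11), −0.61 to 1.51 (Vcam1), −0.54 to 0.34 (F11r), 0.00 to 0.99 (Ncam1), −0.36 to 1.35 (L1cam), −0.83 to 0.37 (Cd44), −0.45 to 0.22 (Sdc1), −0.81 to 0.37 (Sdc2) and −0.08 to 0.31 (Sdc4). The cause was not tested.

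Deviations of like-numbered wild-type and knockout arrays were nearly uncorrelated (0.01, 0.05 and −0.08). Because wild-type arrays 2 and 3 were near-alike, these values cannot decide whether the numbers stand for a pairing. Terf2ip missed the threshold with the replicate block (limma adjusted p = 0.173), the slide block (0.0612), wild-type arrays 2 and 3 averaged (0.0676), and without wild-type array 2 (0.0772) or 3 (0.0606) or knockout array 1 (0.0643) or 3 (0.0581), at −6.86 to −6.58. Low signal over background limits what Itga9, Negr1, L1cam and Esam can show.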

Other observations

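Genes that stand next to these receptors in epithelial junctions were read too. Of 7 desmosome and nectin genes tested, 3 had a difference above 0 and 4 below, with a median of −0.10, and 0 passed the threshold. Dsc2, a desmosomal cadherin, had the smallest p (limma adjusted p = 0.351), and it entered the comparison through the knockout group alone. It read −6.60, −6.31 and −6.87 on the knockout arrays and was not above background on any wild-type array, at least 1.28-fold higher. The p of Dsc2 likewise compares signal with background readings. Dsg2, Dsg3 and Dsc3 were not above background on any array. Pkp1, a desmosomal plaque protein, was chosen after its values were seen; it read −1.73, −5.96 and −5.69 in wild type and −5.53, −0.63 and −1.60 in knockout, high on the same 3 arrays as the 2 Cdh11 probes that varied.

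The 5 repressors of Cdh1 that were read (Snai1, Snai2, Twist1, Zeb1 and Zeb2) were above background on every array. Zeb1 had the smallest p (−0.61, SE 0.42, limma adjusted p = 0.558) and read 1.01, 1.69 and 1.58 in wild type and −0.03, 1.09 and 1.38 in knockout. It was lowest on array 1 of each group, and Cdh1 was above background on both of these arrays. Cdh1 was also above background on knockout array 3, where Zeb1 had its highest knockout reading, 1.38. Snai1, Snai2 and Zeb2 had their highest wild-type readings on wild-type array 1, while Snai2 and Zeb2 had their lowest knockout readings on knockout array 1. The part of these repressors in the Cdh1 readings was not tested.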
